A study of Homo sapiens with 16 samples.

Results

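The genes described here carry out cholesterol synthesis, uptake control, intracellular transport and efflux. They are 31 genes, taken by symbol from the 19468 genes in the deposited expression values and required to reach 1 FPKM (sequenced fragments divided by gene length and by library size) in at least 4 of the 16 libraries. All 31 were present, and 30 passed, each of them in all 16 libraries. ABCG1 reached 1 FPKM in 0 libraries and is described by its reads only. The 30 genes belong to the 12604 genes that passed the same filter and were tested together.

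Total RNA of wildtype MDA-MB-231 cells, a human breast carcinoma line, was sequenced in 4 groups with 4 libraries each. Ancestral cells, the unselected parental population, were placed on soft ECM, a collagen I coated polyacrylamide gel with a Young's modulus of 1 kPa, or on stiff ECM, a gel of the same kind with 308 kPa. Soft-selected cells had been passaged on soft ECM for 75 d and were measured on soft ECM, and stiff-selected cells had been passaged for 75 d on stiff ECM and were measured there. Neither selected population was measured on the other ECM, so for soft-selected against stiff-selected cells the history of the population and the ECM of the measurement cannot be told apart. The selected populations were started from the genetically variable ancestral population rather than from single clones. The labels do not give their clonal composition at the time of sequencing. The names of the stiff columns give 3 kPa, and the stiffness used here is that of the study's methods.

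Cells make cholesterol from acetyl-CoA through mevalonate, farnesyl diphosphate and squalene, and then convert lanosterol to cholesterol in a chain of oxidation, reduction and isomerization steps. When sterols are scarce in the endoplasmic reticulum, SCAP carries the SREBP transcription factors to the Golgi apparatus, where they are cleaved and released to activate most genes of the synthesis pathway; INSIG proteins hold SCAP back when sterols are plentiful. In the opposite direction, oxysterols activate the LXR nuclear receptors, which raise ABCA1 and ABCG1, the pumps that export cholesterol, and MYLIP, a ubiquitin ligase that removes lipoprotein receptors from the cell surface.

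The reads behind the FPKM values could be recovered for 99.98% of the 17735 genes with a read, to within 0.001 reads of a whole number, and summed to between 33606269 and 54127358 per library. Ancestral libraries were mostly deeper (42422074 to 54127358 reads) than selected ones (33606269 to 43352767). All ancestral libraries carry one prefix in their names and all selected libraries another, so this library set and selection cannot be told apart, while soft against stiff ECM lies within a set. VIM (1939 to 2433 FPKM) and CD44 (383 to 572 FPKM) were high. ESR1 and PGR stayed at or below 0.078 FPKM, DCN, PTPRC and HBB at or below 0.101 FPKM, and CDH1 and LUM below 1 FPKM. Other luminal, epithelial, fibroblast and blood markers were expressed. EPCAM was at 7.04 to 14.1, GATA3 at 5.08 to 15.4 and KRT8 at 371 to 598 FPKM. PDGFRB was at 1.01 to 3.80, COL1A1 at 1.41 to 3.16 and CD14 at 0.481 to 3.97 FPKM. The summed level of 6 luminal and epithelial markers, carried by KRT8, was 537 to 621 FPKM in ancestral and 385 to 468 FPKM in soft-selected libraries on soft ECM, and 511 to 610 against 416 to 544 FPKM on stiff ECM. The sum of 3 blood markers, carried by CD14, was 2.86 to 4.13 against 0.508 to 1.25 FPKM on soft ECM and 2.19 to 3.39 against 0.839 to 1.95 FPKM on stiff ECM. Both sums were thus lower in selected cells, without overlap except for the luminal sum on stiff ECM. The sum of 4 fibroblast markers was 5.83 to 6.14 against 4.37 to 6.00 FPKM on soft ECM and 4.35 to 4.75 against 3.37 to 4.74 FPKM on stiff ECM. What part these markers have in the differences below was not tested. Spearman correlations within a group were 0.9867 to 0.9983, lowest between soft-selected replicates 2 and 4. Nothing in the labels says that the replicates are separate cultures, so the p-values below measure only the spread between these libraries.

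With the settings used here, most of the genes that passed in the selection comparisons were lower in selected cells. On stiff ECM this did not hold under every alternative setting. EBP and ABCA1 had the largest changes on both ECM. Of the 30 genes, 12 were down-regulated and 1 was up-regulated in soft-selected against ancestral cells on soft ECM, at an adjusted p under 0.01. Among all genes tested, 15.4% were lower and 21.5% higher in that comparison. In stiff-selected against ancestral cells on stiff ECM, 6 of the 30 were down-regulated and 3 up-regulated, against 10.8% lower and 18.4% higher among all genes tested. The median log2 fold change of the 30 genes was -0.13 on soft ECM and -0.06 on stiff ECM, against 0.04 and 0.05 over all genes. With libraries scaled by the median of ratios, 46.3% and 45.2% of the calls over all genes were higher, in place of 58.2% and 63.0%. With TPM, which gives all libraries the same total, 4 of the 30 genes were lower and 5 higher on stiff ECM. Of all genes tested, 1133 were then lower and 2762 higher on stiff ECM. On soft ECM with TPM, 9 of the 30 were lower and 3 higher, and of all genes tested 1595 were lower and 3233 higher. Leaving out ancestral replicate 1 on stiff ECM also gave 4 lower and 5 higher on stiff ECM. Without soft-selected replicate 2 and stiff-selected replicate 4, which were left out after seeing the data, 10 genes were lower and 2 higher on soft ECM, and 5 lower and 4 higher on stiff ECM.

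The 6 genes down-regulated on stiff ECM were EBP, ABCA1, NSDHL, INSIG2, MSMO1 and SQLE. All 6 were among the 12 down-regulated on soft ECM (100% of the shorter list, 50% of the longer). MYLIP was up-regulated in both comparisons. Both set selected against ancestral libraries, and so hold the same difference of library set. The overlap of calls over all genes tested was not counted. Whether the overlap given here is larger than that of other genes was therefore not tested. LSS, CYP51A1, SC5D, MVK, STARD4 and NR1H2 were down-regulated on soft ECM, and on stiff ECM they had negative log2 fold changes that did not pass. TM7SF2 and NPC1 were up-regulated on stiff ECM, and their log2 fold changes on soft ECM were positive and did not pass. In any of the 4 comparisons of groups, 17 genes passed and 13 did not. How many of all genes tested passed in any of the 4 was not counted. For selection, 4652 of the 12604 genes tested passed on soft ECM and 3669 on stiff ECM. Between the selected groups 811 passed, and between the ancestral groups 1438.

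**Figure D1:**
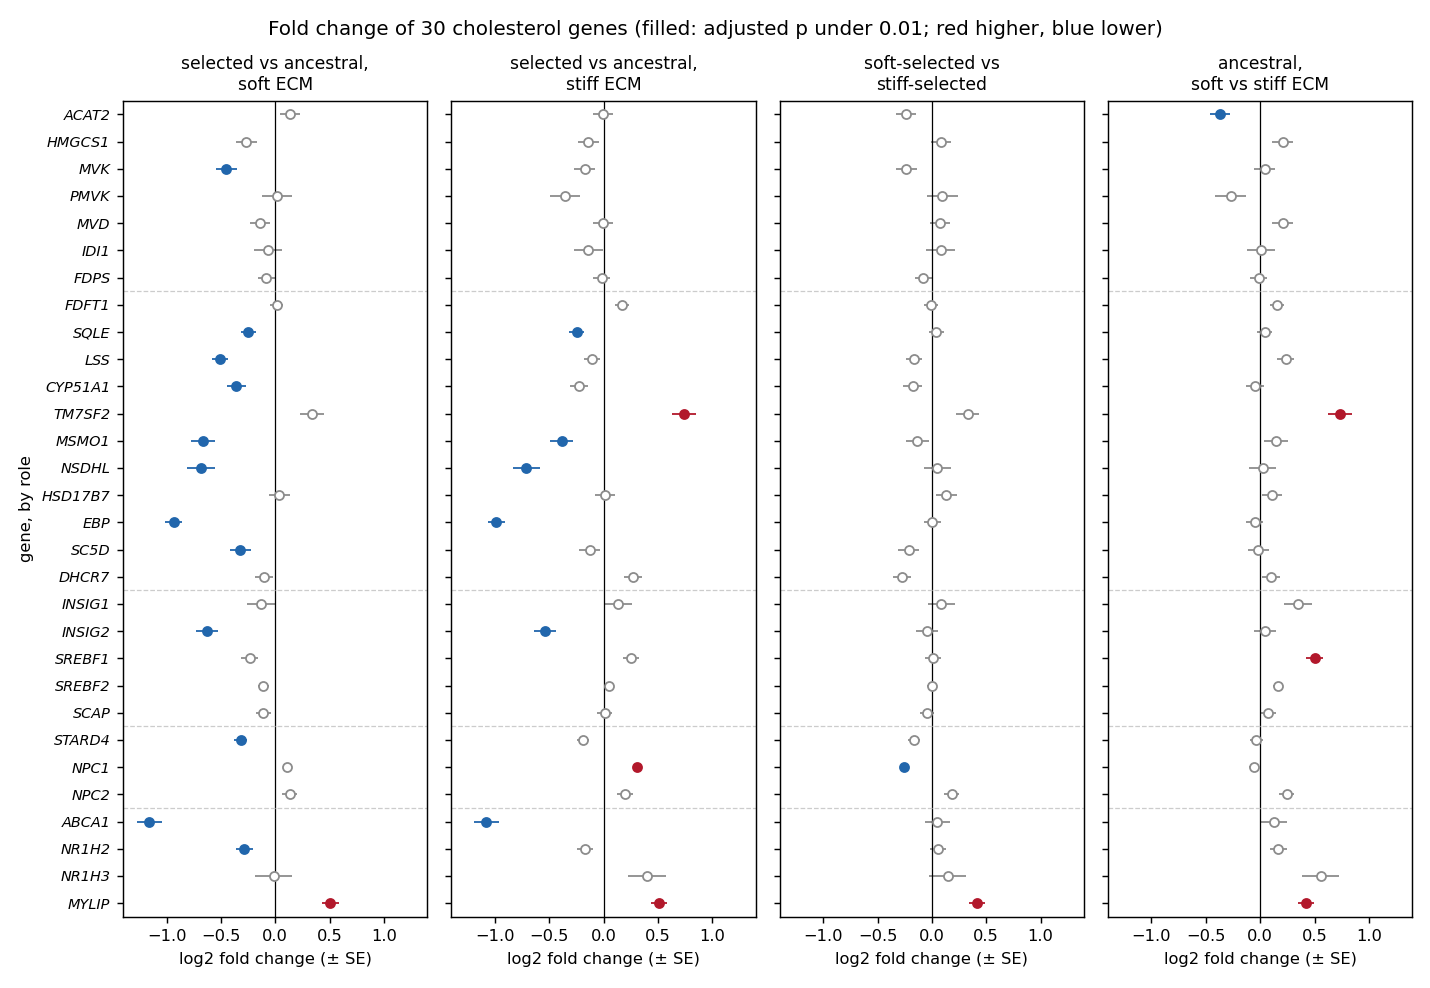
Log2 fold change (horizontal axis, on the log2(FPKM + 1) scale, bars show SE) of the 30 genes, ordered by role from top to bottom, in the 4 comparisons of groups. Filled points passed an adjusted p under 0.01, red for higher and blue for lower: 12 blue and 1 red in the first panel, 6 and 3 in the second, 1 and 1 in the third, 1 and 3 in the fourth.

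The promoters of the 6 genes with a listed sequence that moved in both selection comparisons, and that of SREBF2, are shown because SREBP acts with the factor NF-Y at sterol-regulated promoters. Sequences are the bases just upstream of the RefSeq start site on GRCh38.p14, read 5' to 3' on the gene's strand. Capitals mark the core of the sterol regulatory element (TCACNCCAC) and the NF-Y motif (CCAAT, or ATTGG on the other strand).
SREBF2 (chr22:41832955-41833104, plus strand): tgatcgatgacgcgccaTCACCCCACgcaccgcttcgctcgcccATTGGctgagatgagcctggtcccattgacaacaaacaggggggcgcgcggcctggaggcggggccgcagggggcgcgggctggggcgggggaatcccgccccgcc
EBP (chrX:48521658-48521807, plus strand): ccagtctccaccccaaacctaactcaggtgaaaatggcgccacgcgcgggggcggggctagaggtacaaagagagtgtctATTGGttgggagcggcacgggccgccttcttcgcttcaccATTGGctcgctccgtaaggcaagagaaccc
NSDHL (chrX:152830913-152831062, plus strand): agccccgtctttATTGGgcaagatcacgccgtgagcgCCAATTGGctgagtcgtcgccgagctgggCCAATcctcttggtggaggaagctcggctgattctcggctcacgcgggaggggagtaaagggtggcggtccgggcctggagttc
MSMO1 (chr4:165327519-165327668, plus strand): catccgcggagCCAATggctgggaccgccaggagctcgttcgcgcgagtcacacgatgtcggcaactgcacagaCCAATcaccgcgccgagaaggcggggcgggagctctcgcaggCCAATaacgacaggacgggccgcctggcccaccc
INSIG2 (chr2:118088321-118088470, plus strand): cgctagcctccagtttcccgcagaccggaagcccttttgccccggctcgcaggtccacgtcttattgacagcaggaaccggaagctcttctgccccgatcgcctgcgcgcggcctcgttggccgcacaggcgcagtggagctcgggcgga
ABCA1 (chr9:104928156-104928305, minus strand): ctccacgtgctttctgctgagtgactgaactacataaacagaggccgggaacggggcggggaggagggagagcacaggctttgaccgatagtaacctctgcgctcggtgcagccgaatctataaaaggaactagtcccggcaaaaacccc
MYLIP (chr6:16128936-16129085, plus strand): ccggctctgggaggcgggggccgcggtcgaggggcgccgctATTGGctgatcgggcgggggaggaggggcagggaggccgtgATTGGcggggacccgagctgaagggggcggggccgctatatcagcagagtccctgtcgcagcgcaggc
In windows of 300 bases around the start site, most of them upstream of it, 27 of the 31 genes had a sequence, at 37 start sites. The sterol element core was found on either strand in 1 of the 37 windows (2.7%), that of SREBF2, whose match TCACCCCAC begins 133 bases upstream of the start; it was found in 1.13% of all 35116 windows. CCAAT was found in 21 of the 37 (56.8%), against 34.6% of all windows. NSDHL holds an overlapping pair of the motif on opposite strands, and INSIG2 and ABCA1 hold none in the stretches shown. ACAT2, FDFT1, SQLE and ABCG1 had no entry. A match of letters is a description of the sequence, not a binding site, and the windows do not cover sites farther away. Only exact matches were searched, so elements that differ from these letters were not counted.

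Of the 7 genes of the mevalonate part, 1 (MVK) was down-regulated in soft-selected cells and 0 passed in stiff-selected cells. That share on soft ECM, 14.3%, was near the 15.4% of all genes tested. MVK, mevalonate kinase, was at 25.9, 22.7, 25.8 and 20.1 FPKM in ancestral cells on soft ECM and at 18.0, 18.3, 14.4 and 17.3 FPKM in soft-selected cells, without overlap (log2 fold change -0.45 ± 0.10 SE, adjusted p = 0.00088 by limma). On stiff ECM its log2 fold change was -0.17 ± 0.10 (adjusted p = 0.15). The genes on either side of this step did not pass on either ECM: ACAT2, HMGCS1, PMVK, MVD, IDI1 and FDPS, the last of which makes farnesyl diphosphate, ranged in log2 fold change from -0.27 (HMGCS1) to 0.14 (ACAT2) on soft ECM and from -0.36 (PMVK) to -0.002 (ACAT2) on stiff ECM.

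HMGCS1, which makes HMG-CoA, was decided by 1 library. It stood at 45.3, 45.4, 47.1 and 45.5 FPKM in ancestral cells on soft ECM and at 34.6, 34.9, 34.8 and 49.3 FPKM in soft-selected cells. Replicate 4 of the soft-selected cells thus lay above all 4 ancestral libraries while the other 3 lay below them. With all libraries the log2 fold change was -0.27 ± 0.10 (adjusted p = 0.028), and without replicate 4 it was -0.39 (adjusted p = 0.00029).

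The squalene and sterol steps held most of the changes. In soft-selected cells 7 of 11 genes were down-regulated (63.6%) and 0 up-regulated, against 15.4% and 21.5% of all genes tested. In stiff-selected cells 4 were down-regulated (36.4%) and 1 up-regulated (9.09%), against 10.8% and 18.4%. The largest difference was in EBP, the isomerase that shifts a double bond in the sterol ring. EBP was at 116, 109, 121 and 109 FPKM in ancestral cells on soft ECM and at 58.9, 54.5, 60.6 and 62.3 FPKM in soft-selected cells. Its levels on stiff ECM were 121, 120, 124 and 107 FPKM in ancestral and 62.2, 63.9, 48.2 and 63.0 FPKM in stiff-selected cells. Every selected library lay far below every ancestral library, at 0.523 times the ancestral level on soft ECM (log2 fold change -0.93 ± 0.08, adjusted p = 6.5e-08) and 0.505 times on stiff ECM (-0.99 ± 0.08, adjusted p = 8.5e-08).

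NSDHL, a dehydrogenase that acts in the removal of methyl groups from the ring, was at 34.2, 32.7, 33.2 and 34.0 FPKM in ancestral cells on soft ECM and at 18.8, 29.7, 18.0 and 17.5 FPKM in soft-selected cells. Its levels on stiff ECM were 32.4, 32.4, 31.8 and 35.3 FPKM in ancestral and 20.7, 23.3, 16.4 and 19.3 FPKM in stiff-selected cells. The groups did not overlap on either ECM, although soft-selected replicate 2 stood well above the other 3 libraries of its group. The log2 fold change was -0.68 ± 0.13 on soft ECM (adjusted p = 0.00023; -0.86 without replicate 2, adjusted p = 4.8e-07) and -0.71 ± 0.13 on stiff ECM (adjusted p = 0.00023).

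EBP and NSDHL are both on the X chromosome, at chrX:48521808-48528716 and chrX:152831063-152869729 of GRCh38.p14. The 397 tested genes of this chromosome had a median log2 fold change of -0.38 on soft ECM and -0.43 on stiff ECM, and 52.9% and 59.2% of them were down-regulated, against 14.2% and 9.19% of the 12193 tested genes on other chromosomes. Of the 397, 22 had a lower log2 fold change than EBP on soft ECM and 16 on stiff ECM, and 71 and 59 had a lower one than NSDHL. What part this chromosome-wide difference has in EBP and NSDHL was not tested. Among the 28 genes that are not on the X chromosome, 10 were down-regulated and 1 up-regulated on soft ECM. On stiff ECM 4 were down-regulated and 3 up-regulated. Of the 12193 tested genes on other chromosomes, 22% and 18.8% were up-regulated. The medians of the 22 autosomes ran from -0.21 (chromosome 21, which holds LSS) to 0.25 (chromosome 14, which holds NPC2) on soft ECM and from -0.12 (chromosome 4, which holds MSMO1) to 0.23 (chromosome 14) on stiff ECM.

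MSMO1, the sterol methyl oxidase that acts just before NSDHL, was at 78.5, 85.2, 84.6 and 83.9 FPKM in ancestral cells on soft ECM and at 46.8, 52.3, 46.0 and 64.9 FPKM in soft-selected cells. The stiff ECM libraries stood at 85.2, 81.3, 76.0 and 59.8 FPKM in ancestral and at 52.0, 60.1, 53.8 and 63.4 FPKM in stiff-selected cells. The groups were apart on soft ECM (log2 fold change -0.66 ± 0.11, adjusted p = 7.1e-05), while on stiff ECM the lowest ancestral library, replicate 4, fell among the selected ones (-0.38 ± 0.11, adjusted p = 0.0079; passed in 12 of 27 alternative settings).

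LSS closes squalene epoxide into lanosterol, the first sterol. It was at 103, 97.8, 101 and 95.9 FPKM in ancestral cells on soft ECM and at 74.7, 57.3, 71.0 and 77.2 FPKM in soft-selected cells. On stiff ECM it was at 89.8, 84.7, 84.8 and 78.5 FPKM in ancestral and at 72.9, 78.9, 77.5 and 84.4 FPKM in stiff-selected cells. Soft-selected libraries were all lower than ancestral ones (log2 fold change -0.51 ± 0.08, adjusted p = 3.1e-05), and the groups on stiff ECM overlapped (-0.11 ± 0.08, adjusted p = 0.26). The difference between these 2 effects was -0.40 ± 0.11 and did not pass (adjusted p = 0.13).

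CYP51A1, the lanosterol demethylase, was lower in soft-selected cells without overlap, at 61.7 ± 7.03 against 78.9 ± 1.60 FPKM (SD, n = 4; log2 fold change -0.36 ± 0.08, adjusted p = 0.0020). SQLE, squalene epoxidase, was lower by less, at 19.1 ± 2.43 against 22.8 ± 1.29 FPKM on soft ECM (log2 fold change -0.25 ± 0.07, adjusted p = 0.0070) and 18.5 ± 0.503 against 22.1 ± 0.746 FPKM on stiff ECM (-0.25 ± 0.07, adjusted p = 0.0089). SC5D, a sterol desaturase, was at 45.0 ± 8.87 against 55.9 ± 3.40 FPKM on soft ECM with overlapping groups (-0.32 ± 0.10, adjusted p = 0.0094). The SC5D call passed in 6 of 27 alternative settings and the SQLE calls in 18 of 27 on soft and 12 of 27 on stiff ECM.

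TM7SF2, a sterol reductase, went the other way. It was at 31.5, 31.2, 33.1 and 28.5 FPKM in ancestral cells on soft ECM and at 48.3, 31.4, 39.2 and 40.7 FPKM in soft-selected cells. On stiff ECM it was at 20.5, 16.9, 18.3 and 17.5 FPKM in ancestral and at 27.4, 28.1, 35.7 and 34.5 FPKM in stiff-selected cells. Ancestral cells on stiff ECM were thus the lowest group, clear of the other groups, and TM7SF2 was up-regulated in stiff-selected cells (log2 fold change 0.74 ± 0.11, adjusted p = 4.1e-05). On soft ECM the groups overlapped through soft-selected replicate 2 (0.34 ± 0.11, adjusted p = 0.015), and without that library the gene passed (0.44, adjusted p = 0.0012).

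FDFT1 (squalene synthase), HSD17B7 and DHCR7 (the last reductase of the chain) did not pass on either ECM. DHCR7 was the most highly expressed of the 18 enzymes, at 133 ± 2.30 FPKM in ancestral and 125 ± 14.1 FPKM in soft-selected cells on soft ECM, and at 125 ± 14.8 and 151 ± 8.68 FPKM on stiff ECM (log2 fold changes -0.10 ± 0.08 and 0.27 ± 0.08, adjusted p = 0.32 and 0.013). Summed over the 18 enzymes of both parts, the level was 1049 to 1096 FPKM in ancestral and 836 to 1008 FPKM in soft-selected libraries, and 946 to 1084 against 932 to 966 FPKM on stiff ECM. The groups of summed levels did not overlap on soft ECM and did on stiff ECM.

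**Figure D2:**
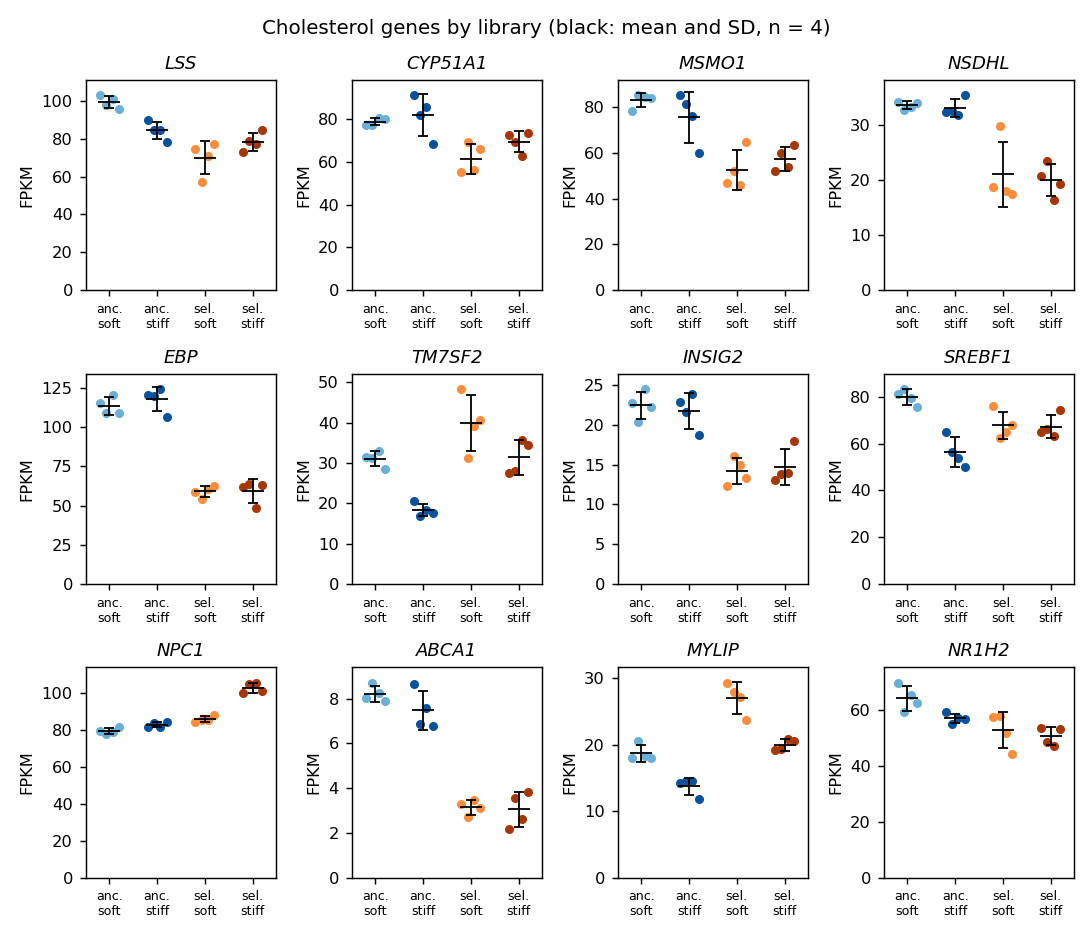
FPKM (vertical axis, from 0) of 12 of the genes in each library, by group, with the mean and SD of 4 libraries in black; anc. and sel. stand for ancestral and selected. EBP, NSDHL, INSIG2 and ABCA1 are low in both selected groups, MYLIP is high in soft-selected cells, and TM7SF2 and SREBF1 are lowest in ancestral cells on stiff ECM.

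Of the 5 genes that control SREBP, INSIG2 alone passed in the selection comparisons, on both ECM. It was down-regulated, a share of 20% on each ECM, against 15.4% and 10.8% of all genes tested. INSIG2 retains SCAP in the endoplasmic reticulum. It was at 22.8, 20.4, 24.5 and 22.2 FPKM in ancestral cells on soft ECM and at 12.4, 16.04, 14.9 and 13.4 FPKM in soft-selected cells. On stiff ECM it was at 22.9, 21.7, 23.9 and 18.7 FPKM in ancestral and at 13.1, 13.8, 13.9 and 18.0 FPKM in stiff-selected cells. Selected libraries were lower without overlap on soft ECM (log2 fold change -0.63 ± 0.10, adjusted p = 5.8e-05) and on stiff ECM (-0.54 ± 0.10, adjusted p = 0.00034), where the closest pair was 18.0 and 18.7 FPKM.

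INSIG1, the isoform whose transcription itself depends on SREBP, was at 135, 143, 141 and 140 FPKM in ancestral cells on soft ECM and at 117, 105, 118 and 184 FPKM in soft-selected cells. As with HMGCS1, replicate 4 of the soft-selected cells lay above all ancestral libraries and the other 3 below them. The log2 fold change was -0.13 ± 0.13 (adjusted p = 0.42), and -0.30 without replicate 4 (adjusted p = 0.0081). On stiff ECM it was 0.13 ± 0.13 (adjusted p = 0.43).

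SREBF1 encodes the SREBP that mainly drives fatty acid synthesis, and SREBF2 the one that mainly drives cholesterol synthesis. SREBF1 was at 81.3, 83.3, 79.4 and 75.5 FPKM in ancestral cells on soft ECM and at 65.1, 56.5, 53.8 and 50.1 FPKM on stiff ECM. In selected cells it was at 75.9, 62.5, 64.8 and 68.0 FPKM on soft ECM and at 64.9, 66.1, 63.4 and 74.3 FPKM on stiff ECM. Ancestral cells were thus apart by ECM, and the selected libraries lay mostly in between, with the soft-selected group overlapping both ancestral groups and the stiff-selected group only that on stiff ECM. Selection had log2 fold changes of -0.24 ± 0.08 on soft ECM (adjusted p = 0.015) and 0.25 ± 0.08 on stiff ECM (adjusted p = 0.012), neither of which passed. SREBF2 was within 59.3 to 72.5 FPKM and SCAP within 34.4 to 43.9 FPKM over all 16 libraries, and neither passed in a comparison.

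Among the 3 genes of intracellular transport, STARD4 was down-regulated on soft ECM and NPC1 up-regulated on stiff ECM. STARD4, a cytosolic sterol carrier, was at 22.3 ± 1.12 against 28.1 ± 1.18 FPKM in soft-selected and ancestral cells, without overlap (log2 fold change -0.32 ± 0.06, adjusted p = 0.00025), and at 25.2 ± 1.51 against 28.8 ± 1.51 FPKM on stiff ECM (-0.19 ± 0.06, adjusted p = 0.014). NPC1, the membrane protein that exports cholesterol from lysosomes, was at 81.5, 83.4, 81.4 and 84.2 FPKM in ancestral and at 99.7, 105, 105 and 101 FPKM in stiff-selected cells, without overlap (0.31 ± 0.04, adjusted p = 1.4e-05). On soft ECM it was at 79.2, 77.6, 78.6 and 81.6 FPKM in ancestral and at 84.3, 84.9, 85.1 and 87.9 FPKM in soft-selected cells, a small difference without overlap that did not pass (0.11 ± 0.04, adjusted p = 0.030). NPC2, its soluble partner, had the highest level of the 30 genes (302 to 454 FPKM) and did not pass in a comparison.

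In the efflux and LXR arm, ABCA1 had the largest fold change of the 30 genes on both ECM. ABCA1 was at 8.03, 8.71, 8.25 and 7.90 FPKM in ancestral cells on soft ECM and at 3.29, 2.69, 3.48 and 3.10 FPKM in soft-selected cells. On stiff ECM it was at 8.64, 6.88, 7.59 and 6.80 FPKM in ancestral and at 2.16, 3.57, 2.64 and 3.85 FPKM in stiff-selected cells. No library of one group reached the range of the other. The log2 fold change was -1.16 ± 0.12 on soft ECM (adjusted p = 4.8e-07) and -1.08 ± 0.12 on stiff ECM (adjusted p = 2e-06), on 2276 to 3277 recovered reads per ancestral and 647 to 984 per selected library. ABCG1, the second pump, had 20, 45, 26 and 24 reads in ancestral cells on soft ECM and 0, 4, 0 and 5 in soft-selected cells. On stiff ECM the reads were 24, 16, 19 and 11 in ancestral and 1, 2, 1 and 0 in stiff-selected cells. The selected libraries of ABCG1 thus lay below all ancestral ones at these few reads, and no test or fold was computed.

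MYLIP, an LXR target like ABCA1, was higher after selection. It was at 18.0, 20.6, 18.3 and 18.0 FPKM in ancestral cells on soft ECM and at 29.3, 28.0, 27.1 and 23.8 FPKM in soft-selected cells (log2 fold change 0.51 ± 0.08, adjusted p = 3.2e-05). The values on stiff ECM were 14.2, 14.5, 14.5 and 11.8 FPKM in ancestral and 19.2, 19.4, 20.9 and 20.5 FPKM in stiff-selected cells (0.51 ± 0.08, adjusted p = 4.6e-05). The groups were apart in both comparisons. NR1H2, the LXR found in most tissues, was at 52.8 ± 6.45 against 64.3 ± 4.46 FPKM in soft-selected and ancestral cells (-0.28 ± 0.08, adjusted p = 0.0048; passed in 21 of 27 alternative settings) and did not pass on stiff ECM (-0.17 ± 0.08, adjusted p = 0.075). NR1H3, the other LXR, varied widely between libraries, from 8.58 to 19.1 FPKM within the soft-selected group, and did not pass.

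Whether selection acted differently on the 2 ECM was asked of the difference between both effects. No gene passed, 0 of 30 here and 0% higher and 0% lower among all 12604, with limma on log2 values and with limma's voom on recovered reads. At an unadjusted p under 0.05, 6 of the 30 genes (DHCR7, LSS, NPC1, SREBF1, SREBF2 and TM7SF2) and 1627 of all genes remained, and with voom 6 and 1599. All of these 6 had a lower log2 fold change on soft than on stiff ECM. The smallest adjusted p among the 30 was that of SREBF1, with a difference of -0.49 ± 0.11 (adjusted p = 0.062). The difference was below 0 for 24 of the 30 genes, with a median of -0.13, against -0.01 over all genes.

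**Figure D3:**
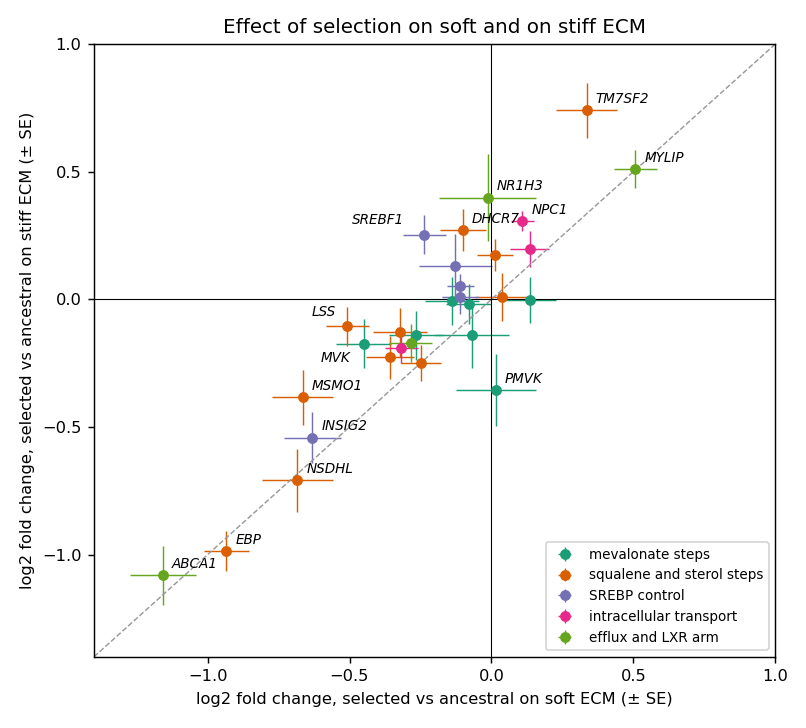
Log2 fold change of selected against ancestral cells on soft ECM (horizontal) and on stiff ECM (vertical) for the 30 genes, with SE bars and colours by role; the dashed line marks equal change. EBP, NSDHL, ABCA1 and INSIG2 lie at the lower left close to the line, MYLIP at the upper right, and 24 of the 30 genes above the line.

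In ancestral cells, soft against stiff ECM asks for the response of unselected cells to stiffness. TM7SF2, SREBF1 and MYLIP were up-regulated on soft ECM and ACAT2 was down-regulated, 3 and 1 of the 30, against 7.54% higher and 3.87% lower among all genes tested. The log2 fold changes were 0.73 ± 0.11 for TM7SF2 (adjusted p = 0.00042), 0.50 ± 0.08 for SREBF1 (adjusted p = 0.00049) and 0.42 ± 0.08 for MYLIP (adjusted p = 0.0012), each without overlap in the values given above. ACAT2, the thiolase that makes acetoacetyl-CoA, was at 42.5 ± 2.90 FPKM on soft and 55.7 ± 8.56 FPKM on stiff ECM with groups that touched (-0.37 ± 0.09, adjusted p = 0.0072; passed in 16 of 27 alternative settings). NR1H3 was apart by ECM at 13.1 to 15.3 against 7.94 to 10.6 FPKM but did not pass (0.56 ± 0.17, adjusted p = 0.025). Of all calls 66.1% were higher on soft ECM, and 47.0% or 49.6% with scaling by the median of ratios or quantiles.

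The selected populations, each on its own ECM, differed in 2 of the 30 genes, with MYLIP higher and NPC1 lower in the soft-selected one, against 3.85% higher and 2.59% lower among all genes tested. The log2 fold change was 0.42 ± 0.08 for MYLIP (adjusted p = 0.0018) and -0.26 ± 0.04 for NPC1 (adjusted p = 0.00064), and neither gene's groups overlapped. For EBP (0.001 ± 0.08), NSDHL (0.05 ± 0.13), INSIG2 (-0.05 ± 0.10) and ABCA1 (0.05 ± 0.12) the selected groups overlapped. Fitted on these 2 groups alone, 0 of the 30 genes passed in either direction, and how many of all genes passed in that fit was not counted. Of all calls 59.8% were higher, and 47.1% or 46.9% with scaling by the median of ratios or quantiles. Each group enters 2 of the 4 comparisons, so these values share libraries with those of selection and of the ancestral cells.

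**Figure D4:**
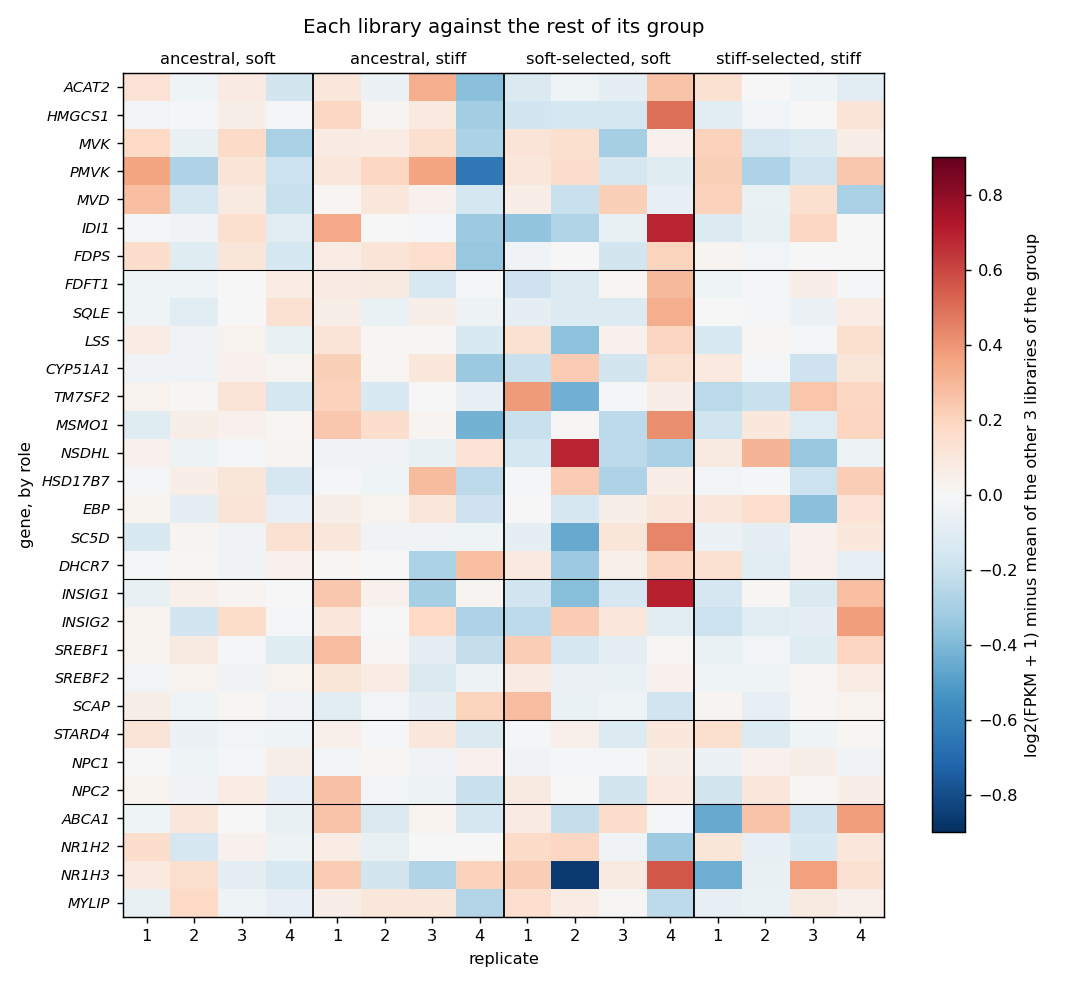
Each library's log2(FPKM + 1) minus the mean of the other 3 libraries of its group (colour, red for higher), for the 30 genes (rows, by role) and 16 libraries (columns). Soft-selected replicate 4 is red for IDI1, HMGCS1, INSIG1, SC5D and MSMO1, and ancestral replicate 4 on stiff ECM is blue for most enzymes.

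In 2 groups, 1 library differed from the others in many of the enzymes. Soft-selected replicate 4 was the highest of its group for 11 of the 18 enzymes, with a median of 0.19 above the other 3 libraries on the log2 scale, while the median over all genes was -0.005. IDI1, the isomerase of the mevalonate part, was at 31.9, 33.3, 37.1 and 55.4 FPKM in the soft-selected libraries. SQLE was at 18.2, 17.7, 17.8 and 22.7 FPKM there. Ancestral replicate 4 on stiff ECM was the lowest of its group for 13 of the 18 enzymes, with a median of -0.21 and -0.01 over all genes. Without soft-selected replicate 4, 13 genes were down-regulated on soft ECM, with HMGCS1 and INSIG1 added and NR1H2 lost (log2 fold change -0.20, adjusted p = 0.016), and without ancestral replicate 4 on stiff ECM, 8 were down-regulated on stiff ECM, with PMVK, CYP51A1 and STARD4 added and SQLE lost.

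Genes next to the pathway were taken from 5 further lists. Of 10 genes of fatty acid synthesis and desaturation, 4 were down-regulated and 2 up-regulated in soft-selected cells, and 1 and 1 in stiff-selected cells. These are 40% and 20% of the list on soft ECM and 10% and 10% on stiff ECM, against 15.4% lower and 21.5% higher, and 10.8% and 18.4%, of all genes tested. ELOVL6, which elongates fatty acids, was lower on both ECM (log2 fold change -0.57 ± 0.07, adjusted p = 4e-06, and -0.45 ± 0.07, adjusted p = 6.9e-05), ACSS2, which makes acetyl-CoA from acetate, was lower on soft ECM (-0.30 ± 0.07, adjusted p = 0.0013), and FASN, fatty acid synthase, was lower on soft ECM (-0.27 ± 0.06, adjusted p = 0.0015). SCD, a desaturase, was lower on soft ECM by more (-0.54 ± 0.14, adjusted p = 0.0036). The 2 up-regulated genes on soft ECM were ACLY (0.17 ± 0.05, adjusted p = 0.0053 by limma) and ACACA (0.18 ± 0.05, adjusted p = 0.0091). ACACA was also the 1 up-regulated gene on stiff ECM (0.35 ± 0.05, adjusted p = 6.2e-05). In ancestral cells SCD and ACSS2 were higher on soft than on stiff ECM. Of 15 genes of the nonsterol isoprenoid branch, 3 were up-regulated and 1 down-regulated on soft ECM and 2 and 1 on stiff ECM. The shares, 20% higher and 6.67% lower on soft ECM and 13.3% and 6.67% on stiff ECM, were each below those of all genes tested. PDSS1, which makes the side chain of coenzyme Q, was higher on both ECM (0.59 ± 0.09, adjusted p = 2.7e-05, and 0.43 ± 0.09, adjusted p = 0.00068), while COQ2, which attaches that chain, was lower on both (-0.33 ± 0.07, adjusted p = 0.00051, and -0.32 ± 0.07, adjusted p = 0.00081).

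In the list of SREBP processing and sterol-regulated degradation, MBTPS2, the protease that releases SREBP from the membrane, was lower on both (log2 fold change -0.51 ± 0.09, adjusted p = 0.00012, and -0.40 ± 0.09, adjusted p = 0.0014). It is also on the X chromosome, where 136 of the 397 tested genes had a lower log2 fold change on soft ECM and 216 on stiff ECM. Of 15 tested genes of esterification, uptake and trafficking, 2 were up-regulated and 2 down-regulated on soft ECM and 2 and 0 on stiff ECM, again shares (13.3% and 13.3%, then 13.3% and 0%) below those of all genes tested. NCEH1, a cholesteryl ester hydrolase, was higher on soft ECM (0.31 ± 0.07, adjusted p = 0.00091) and SCARB1, the receptor for high density lipoprotein, on stiff ECM (0.34 ± 0.07, adjusted p = 0.00088). Of 6 further LXR partners and targets, 1 was up-regulated (16.7%) and 2 were down-regulated (33.3%) on each ECM. Of all genes tested, 21.5% were higher and 15.4% lower on soft ECM, and 18.4% and 10.8% on stiff ECM. RXRA and RXRB, the partners with which LXR binds DNA, were lower (RXRA -0.44 ± 0.07, adjusted p = 5.9e-05, and -0.30 ± 0.07, adjusted p = 0.0022), and SMPDL3A, an LXR target, was higher like MYLIP (0.53 ± 0.08, adjusted p = 2.3e-05, and 0.57 ± 0.08, adjusted p = 1.8e-05).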

How the data were processed

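RNA-seq of 16 libraries in 4 groups of 4 was analysed from the expression values the authors deposited, which are FPKM per gene, computed before deposit from reads aligned with STAR to hg19 (both named without versions in the submitters' processing notes). How reads were counted, and on which gene annotation, is not given in the sources used here. Libraries were grouped by their labels and matched to columns by name. Reads were recovered from the steps of the FPKM values. Tests covered genes that reached 1 FPKM in 4 or more libraries and were run with limma 3.58.1 in R 4.3.3, with the trended prior, on log2(FPKM + 1) in 1 fit of 4 group means, with Benjamini-Hochberg adjustment over 12604 genes and calls at an adjusted p under 0.01. Fold changes are on that scale, which understates those of low genes. The steps were tested on simulated data. Other steps used Python 3.11.15, pandas 2.3.3, numpy 2.4.6 and matplotlib 3.10.9. Gene positions and promoter sequences come from RefSeq on GRCh38.p14, matched by symbol, and no coordinates of the authors' build were used.

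The 31 genes, their roles, the further lists and the comparisons were chosen with earlier results of these data known. The result of 1 gene of the further lists is not reported here. Of the 31 genes, values in every library are given for those that passed with an absolute log2 fold change of at least 0.5; other values were chosen after seeing the data. Up to 3 genes are named from each further list, from among the 3 with the smallest p in a comparison, and SCD, ACLY and ACACA beside them. Alternatives were leaving the filter out, filtering on mean FPKM, a pseudocount of 0.1, TPM, scaling by the median of ratios, quantile normalization, only the groups compared, no trend in the prior, the replicate number as a block, voom on recovered reads, an adjusted p under 0.05 and leaving out each library. Leaving out soft-selected replicate 2 together with stiff-selected replicate 4 was added after seeing the data.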

Additional observations from a re-analysis of the deposited data

Results flagged for a closer look

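Values of a library that stood apart from the other 3 of its group by Dixon's criterion were found 11 times in 120 groups of 4 libraries, where chance gives about 1 in 20. In soft-selected replicate 4, HMGCS1 was at 49.3 FPKM (the others at 34.6 to 34.9), SQLE at 22.7 FPKM and INSIG1 at 184 FPKM, each far above the rest. NSDHL was high in soft-selected replicate 2 at 29.7 FPKM and in ancestral replicate 4 on stiff ECM at 35.3 FPKM. MYLIP was low in that same ancestral library at 11.8 FPKM, and high in ancestral replicate 2 on soft ECM at 20.6 FPKM. EBP was low in stiff-selected replicate 3 at 48.2 FPKM. SC5D was high in ancestral replicate 1 on stiff ECM at 59.6 FPKM, STARD4 in ancestral replicate 1 on soft ECM at 29.8 FPKM, and HMGCS1 in ancestral replicate 3 on soft ECM at 47.1 FPKM. The causes were not tested.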

How the results depend on the processing

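Over 150 pairs of a gene and a comparison, 28 passed, of which 20 passed under every alternative other than the looser threshold, and 0 of these 28 changed direction. The 8 that were lost in at least 1 alternative were SQLE, SC5D and NR1H2 on soft ECM, SQLE and MSMO1 on stiff ECM, NPC1 and MYLIP between the selected groups, and ACAT2 in ancestral cells. Genes higher in soft-selected cells on soft ECM numbered 1 and were 2 with no filter, 3 with TPM, 2 with quantile normalization, 2 without both libraries that were left out together, and 3 at an adjusted p under 0.05; leaving out each library in turn gave 1 to 2, and for lower genes 9 to 13. Genes higher in stiff-selected cells numbered 3 and were 5 with TPM, 5 with quantile normalization, 5 with voom and 7 at 0.05. Leaving out each library gave 3 to 5, and 4 to 8 for lower genes. Genes lower in stiff-selected cells numbered 6 and were 4 with TPM, 4 with no filter and 4 with no trend. They were 8 with scaling by the median of ratios and 9 at 0.05. Between the selected groups, the fit of only these groups gave 0 higher and 0 lower, the threshold of 0.05 gave 2 and 2, and leaving out both libraries gave 2 higher; each library in turn gave 1 to 2 higher and 1 lower. In ancestral cells, higher genes were 6 with only these groups, 7 at 0.05 and 5 without both libraries, and 3 to 5 without each library; the 1 lower gene became 0 with no filter, with only these groups and with no trend, and 0 to 1 without each library. Why these counts moved was not tested. Deviations of same-numbered replicates from their group means had correlations of -0.186 to 0.306, above 0.1 in 7 of 24 pairs. For different numbers 18 of 72 pairs were above 0.1. Deviations within groups of 4 libraries cannot decide whether the numbers pair the libraries. With the replicate number as a block, 12 genes were lower and 1 higher on soft ECM. On stiff ECM 5 were lower and 4 higher, with MSMO1 lost (adjusted p = 0.012 by limma) and DHCR7 gained (0.0099). ABCG1, at 0 to 45 reads per library, was too low to test.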
